A study of Homo sapiens with 24 samples.

Results

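CXCL1, CXCL2, CXCL3, CXCL5, CXCL6, CXCL8, CCL2, CCL20, IL6 and IL1B, which encode secreted signals of inflammation, were followed in HepaRG cells under Wnt stimulation and inhibition. They are 10 of the 41258 genes on the array, and they were chosen as a family, the inflammatory chemokines with the cytokines IL6 and IL1B. They are read by 12 of the 50683 probes. Of the 10 genes, 9 passed the filter on dim probes, so that 9 of the 24647 genes tested are members, and CXCL6 was not tested.

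HepaRG is a human line of bipotent liver progenitors derived from a liver tumour, and its samples are labelled as a hepatocellular carcinoma line. The study asked which genes respond to Wnt3a, and how the response depends on β-catenin and on Wnt outside the cell. RNA was measured on 24 one-colour microarrays, 3 independent cultures for each of 8 conditions.

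Untreated cells were not transfected and received no Wnt3a. The Wnt3a group received 200 ng/ml mouse recombinant Wnt3a for 72 h. The FZD8_CRD groups, also untransfected, received 300 ng/ml of mouse FZD8_CRD, the soluble part of the Frizzled-8 receptor that binds Wnt proteins, without or with the same dose of Wnt3a. The siCTRL groups were transfected by electroporation with 80 pmol of a non-targeting siRNA, and the siCTNNB1 groups with 80 pmol of an siRNA against CTNNB1, the gene for β-catenin. Both were kept without or with Wnt3a. Stimulation took place in serum-free medium with albumin, and the medium in which the cells were grown contains hydrocortisone, a glucocorticoid. Untransfected cells were not electroporated, so that the siRNA and the transfection cannot be told apart in a comparison of siCTRL with untreated cells.

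Chemokines are small secreted proteins that attract leukocytes along a gradient. Those of the CXCL1 to CXCL8 group act on neutrophils through CXCR1 and CXCR2, CCL2 attracts monocytes through CCR2, and CCL20 attracts cells that carry CCR6. IL1B is a cytokine that starts inflammatory signalling through NF-kB, the transcription factor behind much of the induction of these genes, and IL6 drives the acute-phase response of hepatocytes.

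Each signal is a log2 value, the spot intensity divided by the 75th percentile of all spots on the same array, so that 0 is that percentile and 1 unit is a doubling. That percentile lay between 642.7 and 933.8 intensity units, and between 58.26% and 66.5% of the spots of an array were well above background. Weaker signals than -6.13, the floor, were raised to that value. Arrays with the same replicate number, 8 in each case, came from one slide, and every slide had the same layout, with Wnt3a in its second row. Position on the slide and condition therefore cannot be told apart, and slides 1, 2 and 3 below are replicates 1, 2 and 3. The number of arrays limits the precision of each value. An increase or decrease was called where the limma adjusted p was under 0.05, and n is 3 arrays for each mean and standard deviation (SD).

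Of the 10 genes, 8 were well above background on 24 of 24 arrays. CXCL8 was above it on 12 arrays and was set to the floor on 10. CXCL6, which encodes a neutrophil attractant close to CXCL5, was at the floor on 24 of 24. Over all arrays, the signal spanned 1.19 to 3.64 for CXCL1, 1.91 to 3.97 for CXCL2, -1.39 to 0.60 for CXCL3 and 1.54 to 2.85 for CCL2. It spanned -2.33 to -0.23 for CCL20, -3.84 to -1.44 for IL6, -5.04 to -3.48 for IL1B and -3.51 to -1.60 for CXCL5. The plot of the signal of 9 genes over the 8 conditions shows every one of these arrays.

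**Figure D1:**
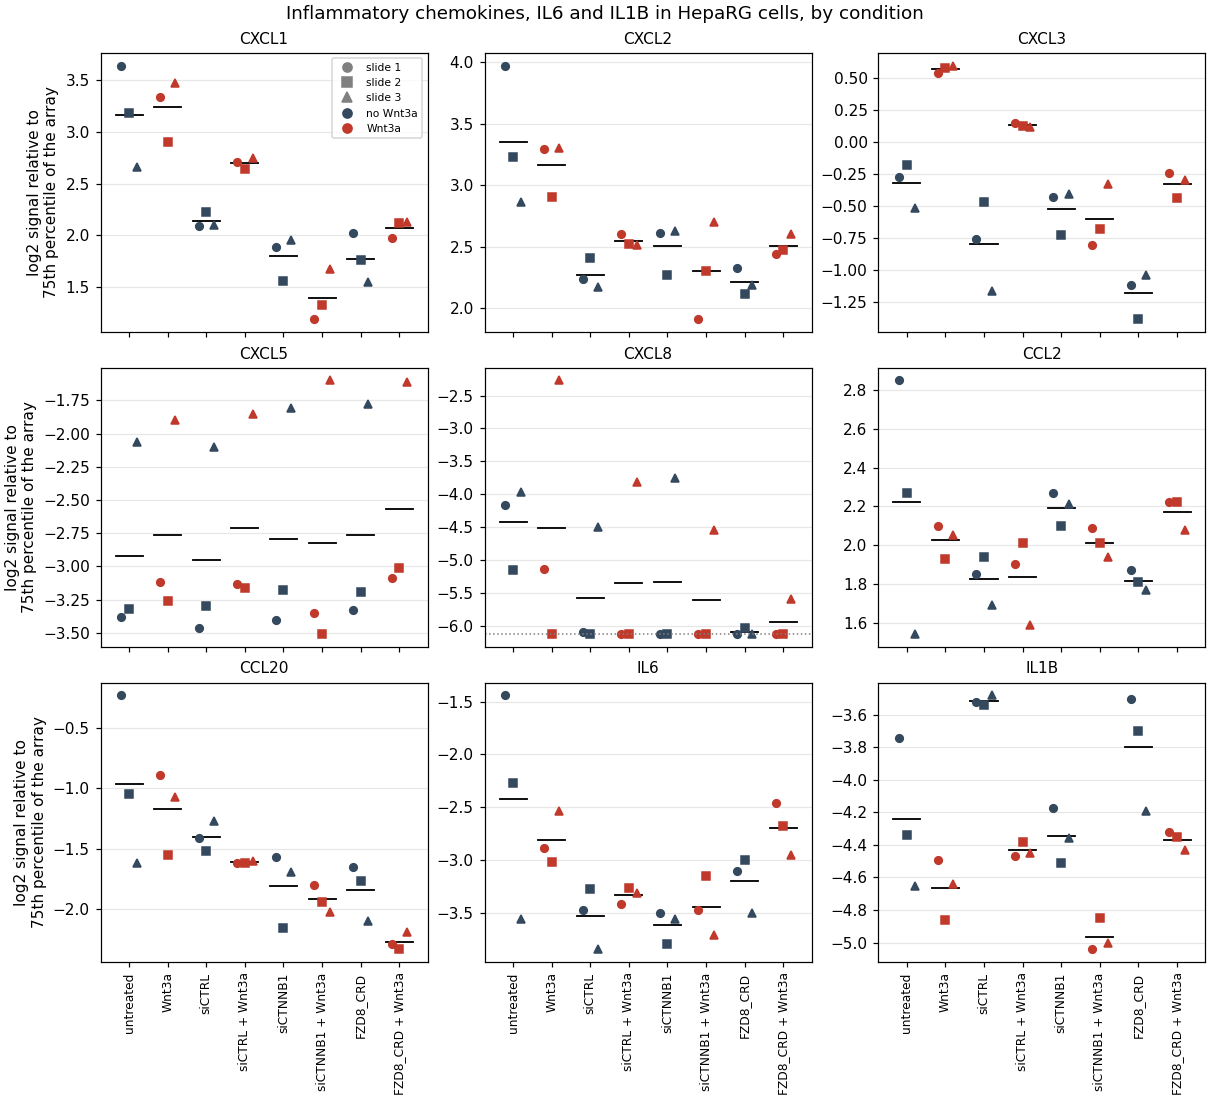
Signal of the 9 tested genes in the 8 conditions (log2 relative to the 75th percentile of the array, vertical axes differ between genes). Points are single arrays with a symbol for each slide, black lines are means of 3 arrays, and the dotted line in the CXCL8 panel is the floor. CXCL3 lies higher on all arrays with Wnt3a than on those without it in untransfected cells, with control siRNA and with FZD8_CRD, and the points overlap with CTNNB1 siRNA.

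The labelled interventions were checked on their targets. CTNNB1 read 3.35, 3.37 and 3.51 with control siRNA and 0.26, 0.35 and 0.52 with CTNNB1 siRNA, and all 6 arrays with CTNNB1 siRNA lay below the 18 others. AXIN2, a feedback target of Wnt signalling, rose with Wnt3a by 0.37 in untransfected cells (limma adjusted p = 0.0453) and by 0.60 with control siRNA (limma adjusted p = 0.00662), and fell by 0.60 with FZD8_CRD alone (limma adjusted p = 0.000118). After CTNNB1 siRNA, AXIN2 was lower with Wnt3a on 3 of 3 slides (means 0.17 without and -0.09 with Wnt3a). The means after control siRNA were 0.05 and 0.65, so that without Wnt3a AXIN2 was not lower with CTNNB1 siRNA than with control siRNA.

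Wnt3a in untransfected cells called 1 of the 9 members, CXCL3, as higher and 0 as lower, where 5.6% of all genes tested were called. With control siRNA it called 1 higher and 1 lower, CXCL3 and IL1B, against 2.11% of all genes. With CTNNB1 siRNA limma called 0 of 9, against 0.0406% of all genes, and 2 members had an unadjusted p under 0.05. In the presence of FZD8_CRD it called CXCL3 alone, against 8.29%. The median log2 change of the members was -0.19, 0.22, -0.18 and 0.29 in these 4 comparisons, beside 0.014, 0.024, 0.03 and 0.018 for all genes. Counts of 1 or 2 among 9 are small numbers beside these shares, and the members did not move as one.

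CXCL1, CXCL2 and CXCL3 encode close relatives that attract neutrophils through CXCR2. They lie on chromosome 4 in a cluster whose order is CXCL8, CXCL6, PF4V1, CXCL1, PF4, PPBP, CXCL5, CXCL3 and CXCL2 in the RefSeq annotation. Their promoters are printed because these 3 relatives carry most of the 20 calls made for members, and of the 3 only CXCL3 was called for Wnt3a. RefSeq promoters (GRCh38.p14, from 250 bases before to 50 after the transcription start) were matched for 9 of the 10 members and not for CCL2. Capitals mark the bases covered by matches to the NF-kB consensus on either strand, joined where matches overlap. Each sequence is written 5′ to 3′ on the strand of its gene: CXCL1 at chr4:73869143-73869442 on the plus strand, CXCL2 at chr4:74099146-74099445 on the minus strand and CXCL3 at chr4:74038640-74038939 on the minus strand.
CXCL1: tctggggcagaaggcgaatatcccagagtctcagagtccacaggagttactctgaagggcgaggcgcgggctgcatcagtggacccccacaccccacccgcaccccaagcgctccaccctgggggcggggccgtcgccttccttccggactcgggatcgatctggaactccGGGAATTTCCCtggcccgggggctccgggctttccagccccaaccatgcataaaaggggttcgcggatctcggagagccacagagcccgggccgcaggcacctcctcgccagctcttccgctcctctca
CXCL2: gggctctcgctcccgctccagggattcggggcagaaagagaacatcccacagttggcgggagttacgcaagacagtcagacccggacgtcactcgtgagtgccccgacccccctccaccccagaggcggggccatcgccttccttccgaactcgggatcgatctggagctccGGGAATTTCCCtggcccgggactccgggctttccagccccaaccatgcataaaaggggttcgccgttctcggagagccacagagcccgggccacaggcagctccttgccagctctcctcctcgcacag
CXCL3: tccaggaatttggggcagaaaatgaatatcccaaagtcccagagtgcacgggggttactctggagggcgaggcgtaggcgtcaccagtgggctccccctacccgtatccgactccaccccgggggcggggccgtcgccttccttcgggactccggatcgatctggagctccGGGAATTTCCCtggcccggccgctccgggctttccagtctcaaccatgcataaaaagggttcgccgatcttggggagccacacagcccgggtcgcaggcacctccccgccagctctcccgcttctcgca

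The 3 sequences were alike, with 82.5% of positions identical between CXCL1 and CXCL3, 73.8% between CXCL2 and CXCL3, and 72.1% between CXCL1 and CXCL2. The marked stretch lay from position -79 to -69 in CXCL1 and CXCL3 and from -78 to -68 in CXCL2, where -1 is the last base before the start. On either strand, the NF-kB consensus was found in 7 of the 9 promoters (CXCL1, CXCL2, CXCL3, CXCL5, CXCL6, CCL20 and IL6) and in 2075 of 35116 promoters in RefSeq, which is 5.91%. It was not found in CXCL8 and IL1B, but a site that departs from the consensus would be missed, so absence of a match is not absence of a site. The AP-1 motif TGANTCA was found in CXCL8 alone (7.71% of all promoters), as was the TCF/LEF motif CTTTGA (12.9%). The TATA motif TATAAA was found in CXCL8 and CCL20 (11.5%). CXCL5 and CXCL6 shared 83.1% of positions. These matches describe letters in a window, and binding was not measured here.

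CXCL3 read -0.27, -0.18 and -0.52 on slides 1, 2 and 3 in untreated cells and 0.54, 0.58 and 0.60 with Wnt3a. With control siRNA it read -0.76, -0.47 and -1.17 without and 0.15, 0.13 and 0.12 with Wnt3a. With FZD8_CRD it read -1.12, -1.39 and -1.04 without and -0.24, -0.44 and -0.30 with Wnt3a. In each of these 3 backgrounds the arrays with Wnt3a all lay above those without it, and in untransfected cells and with control siRNA the 3 arrays with Wnt3a lay close together. With CTNNB1 siRNA the arrays read -0.43, -0.73 and -0.41 without and -0.81, -0.68 and -0.33 with Wnt3a, so that the groups overlapped.

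CXCL3 rose by 0.90 with Wnt3a in untransfected cells (SE 0.15, 1.86-fold, limma adjusted p = 0.00243), by 0.93 with control siRNA (SE 0.15, 1.91-fold, limma adjusted p = 0.0041) and by 0.85 with FZD8_CRD (SE 0.15, 1.81-fold, limma adjusted p = 0.00213). It was higher with Wnt3a on 3 of 3 slides each time. With CTNNB1 siRNA the change was -0.08 (limma adjusted p = 0.956), higher on 2 of 3 slides. The difference between the responses with CTNNB1 siRNA and control siRNA was -1.02 (95% interval -1.46 to -0.57, unadjusted p = 0.000114), which did not pass the adjustment over all genes (limma adjusted p = 0.165). Of the 9 members, limma called 0 for this difference, where 0.0162% of all genes were called and 2 members had an unadjusted p under 0.05. The difference between the responses with and without FZD8_CRD was -0.05 for CXCL3 (95% interval -0.49 to 0.40, limma adjusted p = 0.984), and here limma called 0 of 9, with 0 at an unadjusted p under 0.05 and 0.073% of all genes called.

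With FZD8_CRD, CXCL3 rose from a lower level, and the agent and the position on the slide cannot be told apart here. In untransfected cells it fell by 0.86 with FZD8_CRD alone (SE 0.15, 0.551-fold, limma adjusted p = 0.000124) and by 0.90 where both groups had Wnt3a (0.534-fold, limma adjusted p = 0.000101), on 3 of 3 slides in both. With both agents CXCL3 stood at -0.33 ± 0.10 (SD), beside -0.32 ± 0.17 in untreated cells, and those groups overlapped. For comparison, AXIN2 changed by 0.13 with Wnt3a in the presence of FZD8_CRD (limma adjusted p = 0.58), and its difference from the response without FZD8_CRD was -0.24 (limma adjusted p = 0.572).

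The rises of CXCL3 kept their direction in 21 alternatives of the processing in each of the 3 backgrounds. The call in untransfected cells was lost in 4 of them: scaling to the spike-in probes (limma adjusted p = 0.287), fitting the compared conditions alone (0.235), and leaving out replicate 1 (0.177) or replicate 2 (0.11) of every condition. Over the 21 the adjusted p ran from 0.00128 to 0.287 and the change from 0.50 to 0.97. The same 4 took away the call with FZD8_CRD (limma adjusted p from 0.000492 to 0.395 over the 21). Scaling to the spike-ins or leaving out replicate 1 took away that with control siRNA (limma adjusted p from 0.00171 to 0.255). Scaling to the spike-in probes, which are RNAs added in fixed amounts, moved the median change of all genes to -0.38 in untransfected cells, 0.18 with control siRNA and -0.07 with FZD8_CRD. Relative to those medians CXCL3 was higher by 0.88, 0.91 and 0.83.

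**Figure D2:**
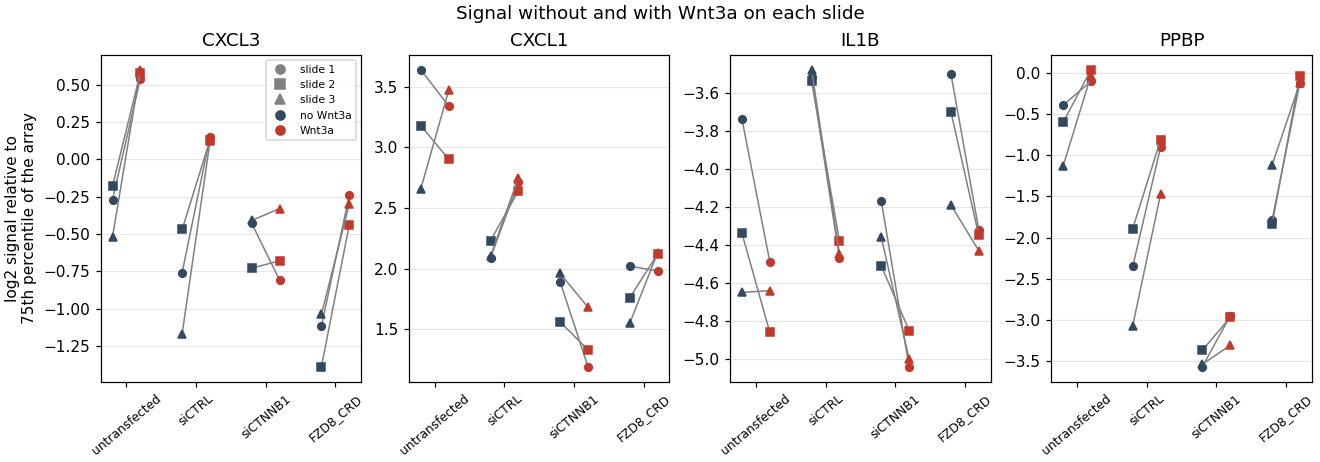
Signal without (dark) and with (red) Wnt3a in the 4 backgrounds for CXCL3, CXCL1, IL1B and PPBP (log2 relative to the 75th percentile of the array, axes differ). Lines join 2 arrays of one slide. CXCL3 rises on 3 of 3 slides outside the CTNNB1 siRNA arm, and IL1B is lower with Wnt3a on 11 of 12 slide pairs.

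CXCL1 was called for Wnt3a in none of the 4 backgrounds in the model of all 8 conditions. It read 3.64, 3.18 and 2.66 in untreated cells and 3.34, 2.90 and 3.47 with Wnt3a, and these groups overlapped. With control siRNA it read 2.09, 2.23 and 2.10 without and 2.71, 2.64 and 2.75 with Wnt3a, which did not overlap. With CTNNB1 siRNA it read 1.89, 1.56 and 1.96 without and 1.19, 1.33 and 1.68 with Wnt3a, lower on 3 of 3 slides while the ranges overlapped.

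The change in CXCL1 with Wnt3a was 0.07 in untransfected cells (limma adjusted p = 0.917), 0.56 with control siRNA (SE 0.19, unadjusted p = 0.00879, limma adjusted p = 0.146), -0.40 with CTNNB1 siRNA (unadjusted p = 0.0477, limma adjusted p = 0.471) and 0.30 with FZD8_CRD (limma adjusted p = 0.431). Fitted on the compared conditions alone, the change with control siRNA was called (limma adjusted p = 0.00893). The difference between the siRNA arms was -0.96 (unadjusted p = 0.00205, limma adjusted p = 0.702).

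Between the siRNAs, with Wnt3a in both groups, CXCL1 fell by 1.30 with CTNNB1 siRNA (SE 0.19, 0.407-fold, limma adjusted p = 0.000123), and it was lower on 3 of 3 slides. CXCL3 fell by 0.74 in the same comparison (SE 0.15, 0.599-fold, limma adjusted p = 0.00238). These 2 were the members called, 0 higher and 2 lower of 9, where 10.6% of all genes were called. CXCL1 kept its call in 21 of 21 alternatives. CXCL3 lost it under scaling to the spike-ins (limma adjusted p = 0.0746) and without replicate 1 (0.175) or replicate 2 (0.0562) of every condition, in a range from 0.00132 to 0.175, and the median change of all genes was -0.21 with that scaling, from which CXCL1 differed by -1.29. Without Wnt3a, CTNNB1 siRNA called 1 of 9 as lower, IL1B, again with 10.6% of all genes called, and the changes were -0.34 for CXCL1 (limma adjusted p = 0.327) and 0.28 for CXCL3 (limma adjusted p = 0.293).

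CXCL2 read 3.97, 3.23 and 2.86 in untreated cells, 3.29, 2.90 and 3.30 with Wnt3a, 2.24, 2.41 and 2.17 with control siRNA and 2.33, 2.12 and 2.19 with FZD8_CRD. The 6 untransfected arrays without FZD8_CRD were above the 6 of the latter groups. Its change with Wnt3a was -0.19 in untransfected cells (limma adjusted p = 0.704) and 0.27 with control siRNA (limma adjusted p = 0.693), and that with CTNNB1 siRNA, Wnt3a in both groups, was -0.24 (limma adjusted p = 0.612). Of the 3 relatives, CXCL2 was the one with no call for Wnt3a and none for CTNNB1 siRNA.

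Control siRNA against no transfection, without Wnt3a, called 5 of the 9 members, 1 higher and 4 lower, where 22.3% of all genes were called. CXCL1 fell by 1.02 (SE 0.19, 0.493-fold, limma adjusted p = 0.000875), CXCL2 by 1.08 (SE 0.21, 0.473-fold, limma adjusted p = 0.00101), IL6 by 1.1 (SE 0.33, 0.466-fold, limma adjusted p = 0.0214) and CXCL3 by 0.48 (SE 0.15, 0.719-fold, limma adjusted p = 0.0264). Each of these 4 was lower on 3 of 3 slides. IL1B rose by 0.73 (SE 0.20, 1.66-fold, limma adjusted p = 0.0103), on 3 of 3 slides. The median change of the members was -0.48 and that of all genes -0.033. IL1B thus moved against the 4 others called.

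These calls rest on single arrays to different degrees. Without replicate 1 of every condition, the limma adjusted p was 0.0942 for CXCL1 and 0.0639 for CXCL2, the highest values over their 21 alternatives and the only ones past the threshold. CXCL3 lost its call in 10 of 21 (limma adjusted p from 0.00652 to 0.287) and IL6 in 8 of 21 (from 8.58e-05 to 0.415). Without the first untreated array the adjusted p was 0.0904 for CXCL3 and 0.178 for IL6, and without the second it was 0.105 and 0.0688. Without the third control siRNA array it was 0.18 for CXCL3 and 0.092 for IL6, and without the first 0.0557 and 0.0504. IL1B lost its call in 5 of 21, among them without the third untreated array (limma adjusted p = 0.0592, in a range from 0.00267 to 0.419). Over the 21 the changes moved too, from -0.76 to -0.29 for CXCL3, from -1.67 to -0.61 for IL6 and from 0.32 to 0.99 for IL1B. The spike-in scaling moved the median of all genes to -0.31, and relative to it CXCL1 changed by -0.99, CXCL2 by -1.05, IL6 by -1.07 and IL1B by 0.76.

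Where both groups had Wnt3a, limma called 0 of 9 members for control siRNA against no transfection, with 3 at an unadjusted p under 0.05 and 9.04% of all genes called. The changes were -0.54 for CXCL1 (limma adjusted p = 0.0847), -0.62 for CXCL2 (0.0678) and -0.44 for CXCL3 (0.0713). Whether the effect of control siRNA differs with and without Wnt3a was not tested. Without the second array with Wnt3a, CXCL1 fell by 0.71 (limma adjusted p = 0.0195) and CXCL2 fell by 0.75 (0.0282).

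FZD8_CRD against no addition called 4 of the 9 members as lower and 0 as higher, where 41.9% of all genes tested were called. A share of 4 in 9 is near that background and is not a result about the members as a set. With the slide as a block the count was 8 of 9, against 53.3% of all genes, with 7 lower and IL1B higher. The 7 include CXCL8, which passed the filter on dim probes through the untreated group alone, so that the filter favoured its fall. CXCL1 fell by 1.39 (SE 0.19, 0.383-fold, limma adjusted p = 1.11e-05), CXCL2 by 1.14 (0.454-fold, limma adjusted p = 0.000186) and CCL20 by 0.87 (SE 0.24, 0.546-fold, limma adjusted p = 0.00599), with CXCL3 as given above. The median change of the members was -0.86, beside -0.085 for all genes. These 4 genes were each lower on 3 of 3 slides. With Wnt3a in both groups, 4 were again lower and 0 higher, against 37.2% of all genes. CXCL1 fell by 1.16 (0.448-fold, limma adjusted p = 9.97e-05), CXCL2 by 0.66 (0.633-fold, limma adjusted p = 0.0162) and CCL20 by 1.1 (0.466-fold, limma adjusted p = 0.0012).

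CXCL1 in the FZD8_CRD groups read 2.02, 1.76 and 1.55 alone and 1.98, 2.12 and 2.13 with Wnt3a, all below the 6 untransfected arrays without FZD8_CRD. Its calls and those of CXCL3 held in 21 of 21 alternatives in both comparisons. Under scaling to the spike-ins the median of all genes was -0.46 without and -0.15 with Wnt3a, and relative to the first CXCL1 differed by -1.31. The call of CXCL2 with Wnt3a in both groups was lost in 6 alternatives (limma adjusted p from 0.00744 to 0.108 over the 21). Without the first array with Wnt3a alone the adjusted p was 0.0666, without the third 0.0573, and without the first array with both agents 0.0518. FZD8_CRD and control siRNA were each compared with the same 3 untreated arrays, so that the falls of CXCL1, CXCL2 and CXCL3 in the 2 comparisons share their reference.

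CCL20, whose product recruits cells with CCR6, read -0.23, -1.05 and -1.62 in untreated cells and -1.65, -1.77 and -2.10 with FZD8_CRD. The lowest untreated array lay just above the highest array with FZD8_CRD, and the first untreated array stood apart. Without that array the change was -0.51 and its limma adjusted p 0.0552, and the call was lost in 4 of 21 alternatives (from 0.000203 to 0.101). With Wnt3a it read -0.89, -1.55 and -1.07, and with both agents -2.29, -2.33 and -2.19, which did not overlap, and that call held in 21 of 21 alternatives. Before any alternative was applied, CCL20 was called in no comparison of Wnt3a with its absence and in none of the siRNAs. Without replicate 3 of every condition it was called as lower for control siRNA (-0.82, limma adjusted p = 0.0387).

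**Figure D3:**
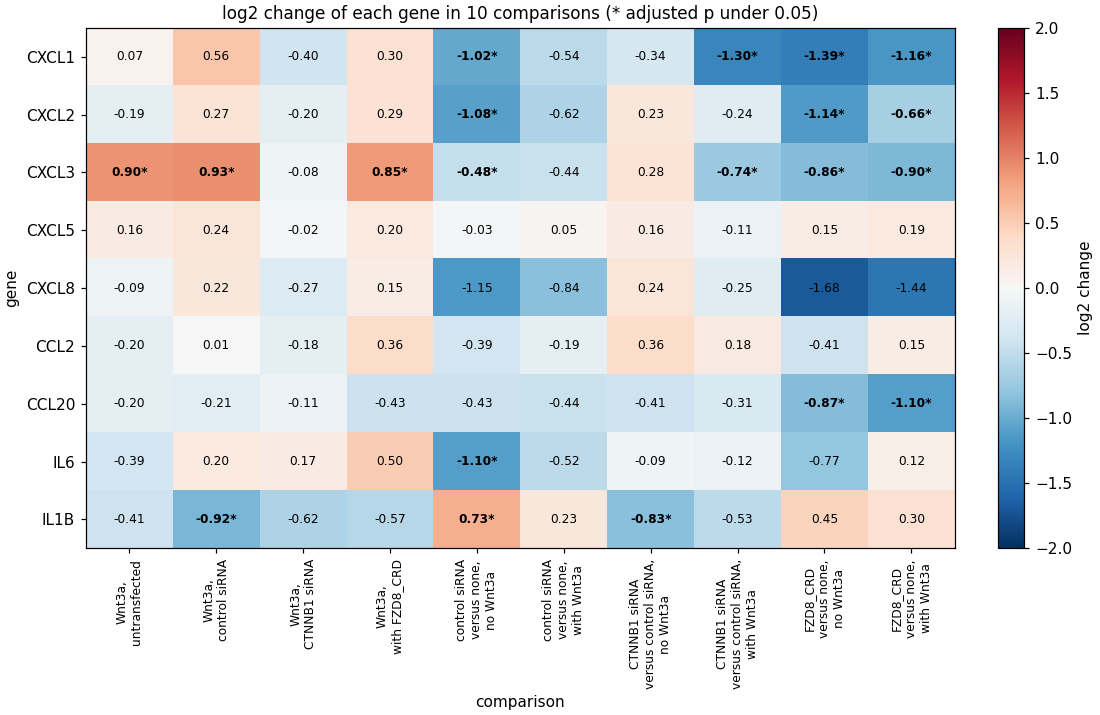
Log2 change of the 9 tested genes in 10 comparisons, as numbers and colours (red higher, blue lower in the group named first). Stars mark a limma adjusted p under 0.05 over all genes. CXCL3 has a star in 7 columns, and CXCL5, CXCL8 and CCL2 have 0.

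IL1B encodes interleukin-1 beta, and its probe is spotted 10 times on the array. It read -3.52, -3.54 and -3.48 with control siRNA and -4.47, -4.38 and -4.45 with Wnt3a added, groups that did not overlap. In untransfected cells it read -3.74, -4.34 and -4.65 without and -4.49, -4.86 and -4.64 with Wnt3a. With CTNNB1 siRNA it read -4.17, -4.51 and -4.36 without and -5.04, -4.85 and -5.0 with Wnt3a. With FZD8_CRD it read -3.50, -3.70 and -4.19 without and -4.32, -4.35 and -4.43 with Wnt3a. The arrays with Wnt3a all lay below those without it in the 3 backgrounds other than untransfected cells, where the groups overlapped.

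IL1B fell by 0.92 with Wnt3a after control siRNA (SE 0.20, 0.528-fold, limma adjusted p = 0.0189). The change was -0.41 in untransfected cells (SE 0.20, limma adjusted p = 0.23), -0.62 with CTNNB1 siRNA (unadjusted p = 0.00521, limma adjusted p = 0.284) and -0.57 with FZD8_CRD (SE 0.20, limma adjusted p = 0.0822). With the slide as a block the last was called (limma adjusted p = 0.0352), as it was without the third array with FZD8_CRD alone (-0.77, limma adjusted p = 0.00909). The call after control siRNA was lost in 10 of 21 alternatives, and leaving out any single one of the 6 arrays compared was enough, with limma adjusted p between 0.053 and 0.0884 (from 0.00651 to 0.785 over the 21). The change itself stayed close to -0.92 in those 6 fits, from -0.95 to -0.90. Over all 21 alternatives it ran from -1.03 to -0.4.

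Without Wnt3a, IL1B fell by 0.83 with CTNNB1 siRNA against control siRNA (SE 0.20, 0.561-fold, limma adjusted p = 0.00873) and was lower on 3 of 3 slides. The call was lost under scaling to the spike-ins (-0.74, and -0.8 relative to the median of all genes, limma adjusted p = 0.6) and without replicate 2 of every condition (-0.77, 0.235), in a range from 0.0014 to 0.6. Over the 21 alternatives the change ran from -0.92 to -0.47. With Wnt3a in both groups the change was -0.53 (limma adjusted p = 0.0985), lower on 3 of 3 slides, and with the slide as a block it was called (limma adjusted p = 0.0438).

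IL6 read -1.44, -2.27 and -3.56 in untreated cells, a range wider than that of any other condition, and -3.47, -3.27 and -3.84 with control siRNA. The third untreated array lay among those with control siRNA. It read -2.88, -3.02 and -2.53 with Wnt3a and -3.10, -3.0 and -3.50 with FZD8_CRD. Beside the fall with control siRNA given above, IL6 was called in no comparison before any alternative was applied, with changes of -0.39 for Wnt3a in untransfected cells (limma adjusted p = 0.597), 0.50 for Wnt3a with FZD8_CRD (0.458) and -0.77 for FZD8_CRD alone (SE 0.33, 0.0687).

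CCL2, the monocyte attractant, has a probe spotted 10 times. It read 2.85, 2.27 and 1.54 in untreated cells, 1.85, 1.94 and 1.69 with control siRNA and 1.87, 1.81 and 1.77 with FZD8_CRD. The untreated arrays spanned those groups. Its change was -0.41 with FZD8_CRD (limma adjusted p = 0.0978) and -0.39 with control siRNA (0.16), and it was called in none of the 12 comparisons before any alternative was applied. Without Wnt3a, CCL2 was higher with CTNNB1 siRNA than with control siRNA on 3 of 3 slides (0.42, 0.16 and 0.52). Fitted on the compared conditions alone, that change of 0.36 was called (limma adjusted p = 0.0275). With Wnt3a, CCL2 was higher on 3 of 3 slides with FZD8_CRD (0.36, 0.41 and 0.31) and lower on 3 of 3 with CTNNB1 siRNA (-0.18, -0.09 and -0.27).

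The third untreated array was the lowest of its group for both CCL2 and IL6, and their results turn on it. Without it, Wnt3a in untransfected cells changed CCL2 by -0.54 (limma adjusted p = 0.0148) and IL6 by -0.95 (0.0164), and 4 of 9 members were called in place of 1, the others being CXCL3 and IL1B (0.0493), where 11.5% of all genes were called in place of 5.6%. FZD8_CRD alone then changed CCL2 by -0.74 (limma adjusted p = 0.00019) and IL6 by -1.34 (0.000204), and control siRNA changed CCL2 by -0.73 (0.000532) and CCL20 by -0.76 (0.0146). The difference between the Wnt3a responses with and without FZD8_CRD became 0.90 for CCL2 (limma adjusted p = 0.019) and 1.46 for IL6 (0.0288). With that array kept, these changes of CCL2 and IL6 were not called before any alternative was applied, while the fall of IL6 with control siRNA given above was. For FZD8_CRD alone, some alternatives on all arrays did call CCL2 and IL6: the slide as a block and scaling to the spike-ins for both, quantile normalization for CCL2 (limma adjusted p = 0.0499) and normexp for IL6 (0.0403).

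CXCL5 and CXCL8 followed the slide more than the condition. CXCL5 encodes another ligand of CXCR2, and its signal on slide 3 was above the mean of its condition in 8 of 8 conditions, by 0.95 on average and by 0.85 to 1.22 in single conditions, while slides 1 and 2 deviated by -0.49 and -0.45. In untreated cells it read -3.38, -3.32 and -2.06. The means of the conditions lay between -2.95 and -2.57, and CXCL5 was called in none of the 12 comparisons. Within slides, CXCL5 was higher with Wnt3a on 3 of 3 in untransfected cells, with control siRNA and with FZD8_CRD, by 0.07 to 0.33. With CTNNB1 siRNA it was higher on 2 of 3. The slide as a block did not call these changes (limma adjusted p = 0.385, 0.244 and 0.276 in the first 3 backgrounds). CXCL8 encodes interleukin-8, a ligand of CXCR1 and CXCR2, and read -4.17, -5.15 and -3.96 in untreated cells. It was above its condition mean on slide 3 in 7 of 8 conditions, by 1.04 on average. On slide 3 with Wnt3a it read -2.27, and on slide 2 it was at the floor.

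**Figure D4:**
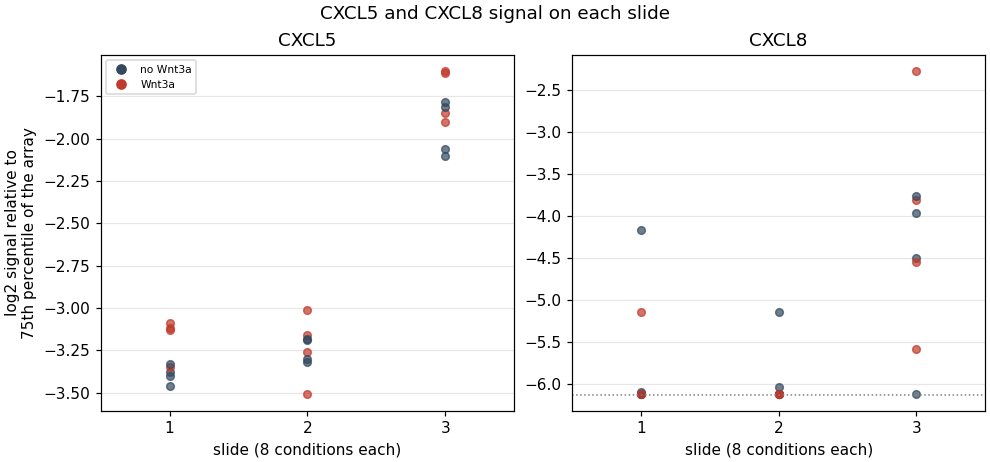
Signal of CXCL5 and CXCL8 on the 3 slides (log2 relative to the 75th percentile of the array), 8 arrays per slide, coloured by Wnt3a. Points of CXCL5 on slide 3 lie above all points of slides 1 and 2, and the dotted line marks the floor for CXCL8.

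With FZD8_CRD alone, CXCL8 read -6.13, -6.04 and -6.13, and 1 of 3 arrays was well above background, against 3 of 3 untreated arrays. Of the 8 conditions, untreated cells were the one through which CXCL8 passed the filter on dim probes. A test of a fall from that group is favoured by the filter, so no p is given for it and its call with the slide as a block carries no weight. The others gained with the block in that comparison were CCL2 (limma adjusted p = 0.0482), IL1B as higher (0.0336) and IL6 (0.0394). With Wnt3a in both groups, the block called CXCL8 as well (-1.44, limma adjusted p = 0.0266), as did the fit without the second array with Wnt3a alone (-2.25, 0.0448) and a floor of 1 intensity unit (-3.18, 0.0344). Because CXCL8 lay at or near the floor with FZD8_CRD, the size of these changes depends on the floor.

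By the median SD of the members, the untreated arrays differed more from each other than those of other conditions. CXCL3, CXCL5 and CXCL8 had a higher SD in another condition, and for CXCL3 it was 0.17 in untreated cells and 0.35 with control siRNA. The median SD of the 9 members was 0.63 in untreated cells, beside 0.183 for all genes, and 8 of 9 members were above the latter, a count also reached with CTNNB1 siRNA, where the medians were 0.20 and 0.12. It was 0.13 with control siRNA, beside 0.12, and 0.06 with control siRNA and Wnt3a, beside 0.149. CXCL1, CXCL2, CCL2, CCL20, IL6 and IL1B all had their highest untreated value on slide 1 and their lowest on slide 3. Each comparison of these genes with untreated cells rests on this spread.

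The second probes gave the same calls. The second probe of CXCL1 fell by 0.74 with control siRNA (limma adjusted p = 0.0137), by 1.21 with CTNNB1 siRNA where both groups had Wnt3a (0.000567), by 1.16 with FZD8_CRD (0.000161) and by 0.95 with FZD8_CRD and Wnt3a in both groups (0.00121). That of CXCL2 fell by 0.80 with control siRNA (0.00965), by 1.03 with FZD8_CRD (0.000618) and by 0.66 with Wnt3a in both groups (0.0186). All 7 calls made with the first probes were made with the second.

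PPBP, which encodes the platelet chemokine CXCL7 and lies between CXCL1 and CXCL5 in the cluster, was set beside the members as a neighbour from the list of other chemokines. In untreated cells it read -0.39, -0.6 and -1.13, and with Wnt3a -0.1, 0.04 and -0.03. With control siRNA it read -2.35, -1.89 and -3.07, and -0.90, -0.81 and -1.47 with Wnt3a added. The values were -1.79, -1.84 and -1.12 with FZD8_CRD and -0.12, -0.03 and -0.12 with Wnt3a added. PPBP rose by 1.37 with Wnt3a after control siRNA (SE 0.25, 2.59-fold, limma adjusted p = 0.0072) and by 1.5 with FZD8_CRD (2.82-fold, limma adjusted p = 0.00162). In untransfected cells its change was 0.68 (limma adjusted p = 0.112) and with CTNNB1 siRNA 0.42 (limma adjusted p = 0.614). It fell by 1.73 with control siRNA (limma adjusted p = 0.000158) and by 2.01 with CTNNB1 siRNA where both groups had Wnt3a (limma adjusted p = 1.68e-05). PF4, which lies between CXCL1 and PPBP, was well above background on 18 arrays and stayed near the floor on most. It read -4.95, -6.13 and -5.24 in untreated cells and -4.62, -5.11 and -5.13 with Wnt3a, and these groups overlapped.

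Over the 12 comparisons, 58.7% of all genes tested were called in at least 1, and the counts of genes called somewhere in the lists that follow stand beside that share. Counts in single comparisons stand beside 5.6% for Wnt3a in untransfected cells, 2.11% after control siRNA and 8.29% with FZD8_CRD. The share was 22.3% for control siRNA (9.04% with Wnt3a in both groups) and 10.6% for CTNNB1 siRNA without and with Wnt3a. For FZD8_CRD it was 41.9%, and 37.2% where both groups had Wnt3a. Counts near these shares are not results about a list. Of 34 other chemokines, 20 were tested and 11 were called in some comparison. The counts of higher and lower were 0 and 2 for Wnt3a in untransfected cells, 1 and 0 after control siRNA, 1 and 3 with FZD8_CRD, 2 and 5 for control siRNA, 0 and 5 for CTNNB1 siRNA with and without Wnt3a alike, 1 and 7 for FZD8_CRD and 2 and 7 for FZD8_CRD where both groups had Wnt3a. CXCL13, a B cell attractant, fell by 3.69 with FZD8_CRD (limma adjusted p = 5.97e-08) and by 0.98 with Wnt3a in untransfected cells (limma adjusted p = 0.038). CXCL14 fell by 1.63 with CTNNB1 siRNA (limma adjusted p = 2.49e-05). The list median was -0.20 for control siRNA and -0.21 for FZD8_CRD, beside -0.48 and -0.86 for the members.

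Of 11 receptors of the members, 8 were tested and 6 called in some comparison. CXCR1, CXCR2 and CCR2, through which most of the member chemokines act, were not well above background on all 3 arrays of any condition and were not tested. IL1R1, the signalling receptor of IL1B, rose by 0.84 with Wnt3a in untransfected cells (limma adjusted p = 0.014) and by 0.86 with FZD8_CRD (limma adjusted p = 0.00802), and fell by 1.14 with CTNNB1 siRNA (limma adjusted p = 0.00051). IL1R2, a decoy receptor of IL1B, fell by 1.56 with CTNNB1 siRNA and by 1.30 with FZD8_CRD. IL6R, the IL6 receptor, rose by 1.29 with CTNNB1 siRNA (limma adjusted p = 0.00209) and fell by 1.09 with FZD8_CRD. In that comparison with FZD8_CRD, 0 receptors were higher and 4 lower, with a median of -0.59, and with CTNNB1 siRNA 1 was higher and 3 lower, with a median of -0.15.

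Upstream cytokines and sensors were tested for 13 of 16 genes, without IL1A, IL33 and TNF, and 9 were called somewhere. Control siRNA called 3 higher and 0 lower, FZD8_CRD 3 and 2, and FZD8_CRD with Wnt3a in both groups 4 and 2. TLR4, a sensor of bacterial lipopolysaccharide, rose by 0.44 with control siRNA and by 0.95 with FZD8_CRD. The median of the list was -0.09 with control siRNA and 0.02 with FZD8_CRD.

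NF-kB subunits and regulators were tested for 16 of 17 genes, and 13 were called somewhere. Wnt3a in untransfected cells called 0 higher and 3 lower, control siRNA 2 and 7, FZD8_CRD 3 and 6, and FZD8_CRD with Wnt3a in both groups 5 and 6. NFKBIZ, a nuclear IkB protein, fell by 1.13 with control siRNA and by 1.55 with FZD8_CRD (limma adjusted p = 9.22e-06). TNFAIP3, a feedback inhibitor of NF-kB, fell by 1.00 with FZD8_CRD, and RELB by 0.62 with Wnt3a in untransfected cells. The list median was -0.18 with control siRNA and -0.19 with FZD8_CRD, smaller in size than that of the members, and protein activity of NF-kB was not measured here.

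AP-1 and C/EBP factors were tested for 11 of 11 genes and 9 were called somewhere, 1 higher and 1 lower for Wnt3a in untransfected cells, 2 and 2 for CTNNB1 siRNA where both groups had Wnt3a, 4 and 0 for FZD8_CRD, and 2 and 3 for FZD8_CRD where both groups had Wnt3a. FOSL2, an AP-1 subunit, rose by 0.87 with Wnt3a in untransfected cells (limma adjusted p = 0.0291) and fell by 1.70 with CTNNB1 siRNA where both groups had Wnt3a (limma adjusted p = 3.77e-05). Of the IL6-type cytokines and STAT3 genes, 8 of 9 were tested and 5 called somewhere, with 2 higher and 0 lower for Wnt3a both in untransfected cells and after control siRNA. IL11, which signals through the same receptor subunit as IL6, rose by 1.59 (limma adjusted p = 0.0325) and by 1.99 (limma adjusted p = 0.0178) in those comparisons, in which IL6 was not called.

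The 7 mRNA decay regulators, which include proteins that bind AU-rich elements of cytokine transcripts, were all tested, and 6 were called somewhere, 1 higher and 1 lower for control siRNA and 2 and 3 for FZD8_CRD. HNRNPD, which binds such elements, rose by 0.55 with control siRNA and by 0.64 with FZD8_CRD. The 7 genes of the glucocorticoid response were all tested and all called somewhere, 2 higher and 5 lower for FZD8_CRD, with a median of -0.34, and 3 higher and 0 lower for CTNNB1 siRNA where both groups had Wnt3a. TSC22D3, a glucocorticoid-induced gene, fell by 0.65 with FZD8_CRD.

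The labelled cell type was checked on markers. Of 13 hepatic and biliary markers, 12 or 13 were well above background on each array, with EPCAM above it on 1 array, and 9 of the 12 tested were called somewhere. Their summed signal, in units of the 75th percentile of an array, was 1860, 1540 and 1120 in untreated cells, 1290, 849 and 1290 with Wnt3a, 854, 817 and 773 with control siRNA, 673, 620 and 648 with control siRNA and Wnt3a, 1030, 900 and 967 with CTNNB1 siRNA, 680, 770 and 857 with CTNNB1 siRNA and Wnt3a, 830, 716 and 917 with FZD8_CRD, and 951, 940 and 872 with both agents. Control siRNA called 0 of them higher and 6 lower, with a median of -0.64, and FZD8_CRD 2 and 7, with a median of -1.02. Where both groups had Wnt3a, the counts were 0 and 4 for control siRNA (median -0.67), 2 and 4 for FZD8_CRD (median -0.12) and 1 and 1 for CTNNB1 siRNA (median -0.03), and CXCL1 changed by -0.54, -1.16 and -1.30 there. The part of these markers in the changes of the members was not tested. In these bulk samples, fewer cells of a type and less RNA per cell cannot be told apart.

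All samples are labelled as HepaRG, and the labels name no other cells. Leukocytes also make these cytokines, so genes used as leukocyte markers were read too. Signal of such a gene does not by itself show that leukocytes were present. Of 9 leukocyte markers, 7 have a named probe (AIF1 and LYZ have none), and 5 to 7 of them were well above background on each array. S100A8 read 3.92 on average in untreated cells. PTPRC, which marks leukocytes at large, read -3.53 there and was above background on 24 arrays by at least 1 of its 4 probes. CD3E, a T cell marker, read -5.73 in untreated cells and was above background on 16 arrays. In untreated cells S100A8 was the brightest of these markers, before CD79A (1.85), so that the summed signal follows S100A8 most. The summed signal lay between 19.2 and 23 in untreated cells, 15.5 and 22.1 with Wnt3a, 18 and 20.8 with control siRNA, 16 and 18.5 with control siRNA and Wnt3a, 13.4 and 14.8 with CTNNB1 siRNA, 9.34 and 13.5 with CTNNB1 siRNA and Wnt3a, 6.87 and 10.1 with FZD8_CRD, and 5.73 and 7.02 with both agents. FZD8_CRD called 0 higher and 3 lower, control siRNA 1 and 0, CTNNB1 siRNA 0 and 2, and Wnt3a 1 and 1 both in untransfected cells and with FZD8_CRD. Where both groups had Wnt3a, FZD8_CRD called 1 and 3, control siRNA 1 and 0, and CTNNB1 siRNA 0 and 3. S100A8 fell by 2.1 with FZD8_CRD and by 2.7 where both groups had Wnt3a, and in the latter comparison CSF1R rose by 2.06 (limma adjusted p = 0.000983). With FZD8_CRD alone, the markers not called changed by -0.57 (PTPRC), -0.2 (CD14), 0.98 (CSF1R) and 0.9 (CD3E). Of 5 endothelial markers, 4 or 5 were well above background on each array, with TEK above it on 5 arrays. Their summed signal lay between 0.783 and 4.2, with means of 3.7 in untreated cells, 2.83 with Wnt3a, 1.5 with FZD8_CRD and 0.859 with both agents. In untreated cells KDR read 1.81 on average and the other markers -3.25 or less, so that this sum follows KDR most. The counts were 0 higher and 1 lower for FZD8_CRD and for CTNNB1 siRNA, and 1 and 1 for FZD8_CRD where both groups had Wnt3a and for Wnt3a with FZD8_CRD. KDR fell by 2.06 in the former of these. The gene called higher in both was TEK. It passed the filter on dim probes through the group with both agents alone, which favours a rise to that group. The calls of TEK therefore carry no weight. The part of either list in the result was not tested.

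The genes most like the members over the 24 arrays were found by Pearson's r with the mean of the standardised signals of the 9 members, among 15965 genes. They were CTSO (r = 0.919), FOLR3 (0.91), LIPC (0.908), MEX3D (0.905) and USP30-AS1 (0.903). The members themselves had r of 0.93 for CXCL2, 0.90 for CXCL1, 0.79 for CCL20, 0.72 for IL6, 0.67 for CXCL8, 0.59 for CXCL3 and 0.50 for CCL2, with 0.12 for CXCL5 and 0.10 for IL1B, and each is part of that mean. The mean score therefore follows CXCL1 and CXCL2, and IL1B and CXCL5 stand apart from it. Conditions and slides are common to all arrays, so that these values are a description and no test was made.

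The conditions were put in order of their mean signal. For CXCL3 the order ran from Wnt3a (0.58 ± 0.03, SD) over control siRNA with Wnt3a (0.13 ± 0.02), untreated (-0.32 ± 0.17), both agents (-0.33 ± 0.10), CTNNB1 siRNA (-0.52 ± 0.18), CTNNB1 siRNA with Wnt3a (-0.61 ± 0.25) and control siRNA (-0.80 ± 0.35) to FZD8_CRD (-1.18 ± 0.18). The first and second of these were clear of each other and of the rest, and the 6 that follow each overlapped with the next. For CXCL1 it ran from Wnt3a (3.24 ± 0.30) over untreated (3.16 ± 0.49), control siRNA with Wnt3a (2.70 ± 0.06), control siRNA (2.14 ± 0.08), both agents (2.08 ± 0.08), CTNNB1 siRNA (1.80 ± 0.22) and FZD8_CRD (1.78 ± 0.23) to CTNNB1 siRNA with Wnt3a (1.40 ± 0.25). Control siRNA with Wnt3a was clear of control siRNA and both agents were clear of CTNNB1 siRNA, and the other neighbours overlapped. For IL1B it ran from control siRNA (-3.51 ± 0.03) to CTNNB1 siRNA with Wnt3a (-4.96 ± 0.10), the highest and lowest of the 8.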

How the data were processed

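RNA of 24 HepaRG cultures was measured on one-colour Agilent arrays and read with Feature Extraction (version 10.7.1.1 in the headers, 10.7.3.1 in the submitters' processing notes). Per the file headers, the intensity values are linear, with background subtracted and spatial trends removed by that software, and are not scaled between arrays. The log2 table deposited by the authors holds 25443 probes, scaled to the 75th percentile and centred on the median of each probe. It was matched to the scanner values (r from 0.926 to 0.992) and used as an alternative.

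The 61657 spots that are not controls (62976 in all) were scaled to the 75th percentile, given a floor (1.43% of that percentile), averaged per probe without outlier spots, and expressed as log2. Probes were named through the RefSeq transcript in their SystematicName, which gave 28174 of 50683 a symbol. Probes that in 1 or more conditions were well above background on each of the 3 arrays were kept (31065). A gene with several was represented by the brightest on average. limma 3.58.1, run in R 4.3.3, fitted one model with 8 condition means (eBayes with trend, two-sided tests), with Benjamini-Hochberg adjustment over 24647 genes. The headers name build hg19, and no coordinates were taken from the files. Figures were drawn with matplotlib 3.10.9. The fit was tested on simulated data.

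Members and lists were chosen with earlier results of these data known. The genes named are the 10 members with all their probes, CTNNB1, AXIN2, the neighbours PPBP and PF4, and the 5 genes most like the members. From each list they include the genes called with the largest changes, up to 4 per comparison, of which some are printed. The lists were other chemokines, receptors of the members, upstream cytokines and sensors, NF-kB, AP-1 and C/EBP, IL6-type cytokines, mRNA decay, glucocorticoid response, and hepatic, leukocyte and endothelial markers.

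The replicate number marks the slide, and each slide had 1 scan date. Deviations from condition means had a mean correlation of 0.3843 between arrays of one number, and 82 of 84 such pairs exceeded 0.1. Between arrays that differed in both number and condition it was -0.191. Deviations within a condition sum to 0, which ties the second mean to the first, so it is no separate observation. The number was left out of the model, since the study's methods give no pairing, and tried as a block. The alternatives were quantile normalization, scaling to 7 spike-in probes, the deposited values, normexp on median signals (offset 50), a floor of 1 intensity unit, outlier spots kept, other filters on dim probes, probes of one gene averaged, the slide as a block, only the conditions compared, the study's thresholds (unadjusted p under 0.01 with a fold above 1.5 or below 0.7), and leaving out replicates.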

Additional observations from a re-analysis of the deposited data

How the results depend on the processing

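Over 21 alternatives for each of the 20 calls of a member, 0 changed direction. The calls that held in all 21 were those of CXCL1 for CTNNB1 siRNA with Wnt3a and for FZD8_CRD without and with Wnt3a, of CXCL3 for FZD8_CRD without and with Wnt3a, of CXCL2 for FZD8_CRD without Wnt3a, and of CCL20 for FZD8_CRD with Wnt3a. Of the 88 pairs of member and comparison not called, 24 were called in some alternative and 42 changed sign in one. The cause of the changes below was not tested.

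Scaled to the spike-in probes, the number of members called of 9 was 0 for Wnt3a in untransfected cells, 0 after control siRNA, 0 with FZD8_CRD, 3 for control siRNA without Wnt3a, 0 for CTNNB1 siRNA without and 1 with Wnt3a, and 7 for FZD8_CRD alone. Over all genes that scaling called 24 higher and 265 lower for Wnt3a in untransfected cells (738 and 643 in the main scaling), 54 and 2 after control siRNA (269 and 251), 162 and 73 with FZD8_CRD (1074 and 970), 123 and 1517 for control siRNA (3022 and 2479), 102 and 104 for control siRNA with Wnt3a (1342 and 885), 40 and 601 for CTNNB1 siRNA with Wnt3a (1006 and 1602), 553 and 6828 for FZD8_CRD (4851 and 5471), 662 and 1626 for FZD8_CRD with Wnt3a (4493 and 4669), and 12 and 2 for the difference in response with FZD8_CRD (5 and 13). The median of all genes moved to -0.28 for the difference between the siRNAs and 0.31 for that with FZD8_CRD. Where few genes were called, other scalings also moved the split: for Wnt3a after CTNNB1 siRNA, 9 higher and 5 lower by quantile normalization, 5 and 3 by the deposited values and 5 and 0 by normexp (9 and 1), and for the difference with FZD8_CRD 13 and 13, 2 and 3, and 1 and 10. For the difference between the siRNAs, normexp called 0 and 1 (1 and 3).

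Quantile normalization called 2 members for Wnt3a with FZD8_CRD (8.04% of all genes) and 2 for control siRNA with Wnt3a (9.52%). The deposited values, with 8 members tested, called 2 and 1 there (9.21% and 11.7%). Both settings also called IL1B as higher for FZD8_CRD alone (0.70 and 0.69, limma adjusted p = 0.00707 and 0.0045) and with Wnt3a in both groups (0.56 and 0.54, limma adjusted p = 0.0277 and 0.0221), and quantile normalization called CCL2 as lower for FZD8_CRD alone (0.0499). With no filter on dim probes, 3 of 10 were called for control siRNA without Wnt3a (11.6%). Fitting only the conditions compared gave 0 for Wnt3a in untransfected cells (0.00811%), 0 with FZD8_CRD (0%), 2 for control siRNA (15%) and 2 for CTNNB1 siRNA without Wnt3a (17.5%), and 3 for Wnt3a after control siRNA (5.39%), where CXCL1 was gained. The study's thresholds gave 1 for Wnt3a after CTNNB1 siRNA (1.27%), 2 with FZD8_CRD (5.72%), 1 for control siRNA with Wnt3a (5.48%) and 2 for the difference between the siRNAs (0.568%).

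With the replicate block (the slide), 2 of 9 members were called for Wnt3a with FZD8_CRD (13.4% of all genes), 3 for CTNNB1 siRNA with Wnt3a (15.6%), 8 for FZD8_CRD alone (53.3%) and 5 for FZD8_CRD with Wnt3a (48.5%), by the gains named above. It changed no other call. That 8, and the 7 for FZD8_CRD alone scaled to the spike-ins or without replicate 3, include CXCL8, as does the 7 for control siRNA without replicate 3. CXCL8 passed the filter on dim probes through the untreated group alone, which favours a fall from it.

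Leaving out replicates, whole or single arrays, the count (and the share of all genes) ran from 0 to 4 for Wnt3a in untransfected cells (0.0471% to 25%), from 0 to 1 after control siRNA (0.032% to 2.26%), from 0 to 2 with FZD8_CRD (0% to 20.9%), from 1 to 7 for control siRNA without (0.948% to 27.2%) and from 0 to 2 with Wnt3a (0.032% to 16.4%), from 0 to 1 for CTNNB1 siRNA without (1.76% to 9.18%) and from 1 to 2 with Wnt3a (2.36% to 10.5%), from 3 to 7 for FZD8_CRD without Wnt3a (24.7% to 44.4%), and from 0 to 2 for the difference in response with FZD8_CRD (0% to 11.7%). The share was 11.5% at the 4, 27.2% at the 7 for control siRNA and 44.4% at the 7 for FZD8_CRD. FZD8_CRD alone against untreated cells gave an IL1B change of 0.71 without the first untreated array (limma adjusted p = 0.00545) and of 0.65 without the third array with FZD8_CRD (0.0136), both called.

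CXCL6 on 24 arrays and CXCL8 on 12 were not well above background, which limits what can be said of their levels. The precision of each value is that of 3 arrays, and the untreated arrays, the reference for Wnt3a, control siRNA and FZD8_CRD alone, had the highest median SD over the 9 members, though not over all genes.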

Other observations

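LIPC, which encodes hepatic lipase and was among the genes most like the members over the arrays, fell by 1.61 with control siRNA (limma adjusted p = 0.0134), by 2.63 with FZD8_CRD (limma adjusted p = 0.000102) and by 1.92 with FZD8_CRD where both groups had Wnt3a (limma adjusted p = 0.00219). IL11 rose by 2.31 with FZD8_CRD alone, a comparison in which the IL6 change was -0.77 and not called.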
